A study of Rattus norvegicus with 6 samples.

Results

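Chemokines are small secreted proteins that leukocytes follow along a gradient by means of receptors on their surface. The 10 rat genes described here, Cxcl13, Ccl12 and 8 others, fall into classes by the cells they attract. Cxcl13 and Ccl19 are lymphoid chemokines, which draw B cells and T cells into organised lymphoid tissue. Cxcl9, Cxcl10 and Cxcl11 are induced by interferon and attract activated T cells through the shared receptor Cxcr3. Ccl2, Ccl7 and Ccl12 attract monocytes through Ccr2. The remaining genes are Ccl5, which attracts T cells and monocytes, and Cx3cl1, or fractalkine, a membrane-anchored chemokine that can be shed. In kidney, tubular, endothelial, stromal and resident immune cells can all make chemokines, most of them after stimulation by interferon or NF-kB signalling.

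The genes were chosen by name, and each was found through the transcript accession that the array design gives its probes. All 10 had probes, 15 in all, out of 15644 genes that could be named on the array. The set was proposed with the treated and vehicle values of these same arrays in view. The differences between the groups are therefore given for these genes as a description, with no test.

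Renal cortex came from 6 male Sprague-Dawley (Crl:CD(SD)) rats, bought at 5 weeks of age. The vehicle group (VC) was 3 rats given corn oil for 4 weeks, and the treated group was 3 rats dosed with sulfone bis(p-chlorophenyl), a sulfone that bears chlorinated phenyl rings, at 250 mg/kg/day over the same 4 weeks. The design text calls the 3 samples of each group biological replicates. Each rat's RNA was read on its own array, Agilent, with a single dye (Cy3). Values are log2 of the processed spot signal minus log2 of that array's 75th percentile, so that 0 is the level of the 75th percentile probe. A probe's level depends on its own sequence, and levels are compared only within a probe.

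Between 66.1% and 68.2% of probes were well above background on an array, by the flag of the scanner software. Transcripts of proximal tubule (Slc34a1, Lrp2) and thick ascending limb (Umod) were well above background on all 6 arrays. Vehicle 1 to 3 and treated 1 were on slide 1, and treated 2 and 3 were on slide 2. The probe-wise test (limma, Benjamini-Hochberg adjusted p under 0.05) called 0.00246% of 40643 probes higher and 0.00492% lower. Without treated 1 it called 1467 probes higher and 2768 lower. All 12 liver markers tested had a positive difference (median 0.58). At an unadjusted p under 0.05, 2 of the 12 were higher, beside 10.1% of all tested genes, and 0 passed after adjustment. The averaged level of the liver markers relative to the vehicle mean ranged from -0.91 to 0.76 on the vehicle and from 0.11 to 2.07 on the treated arrays. Its part in the results was not tested.

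Of the 10 chemokines, 5 were lower on every treated array than on every vehicle array: Cxcl13, Ccl12, Ccl2, Cxcl10 and Cxcl9. Over all 12118 genes tested, 16.8% had groups that lay apart in that direction. The genes were chosen on this contrast, so nothing is read from the count. A log2 difference below -1 was found for 4 of the 10, and for 0.916% of all tested genes. None of the 10 lay apart in the other direction, against 13.9% of all genes. The median of the 10 log2 differences was -0.66, beside -0.013 over all tested genes. In whole tissue, fewer cells of a type and less RNA per cell cannot be told apart.

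**Figure D1:**
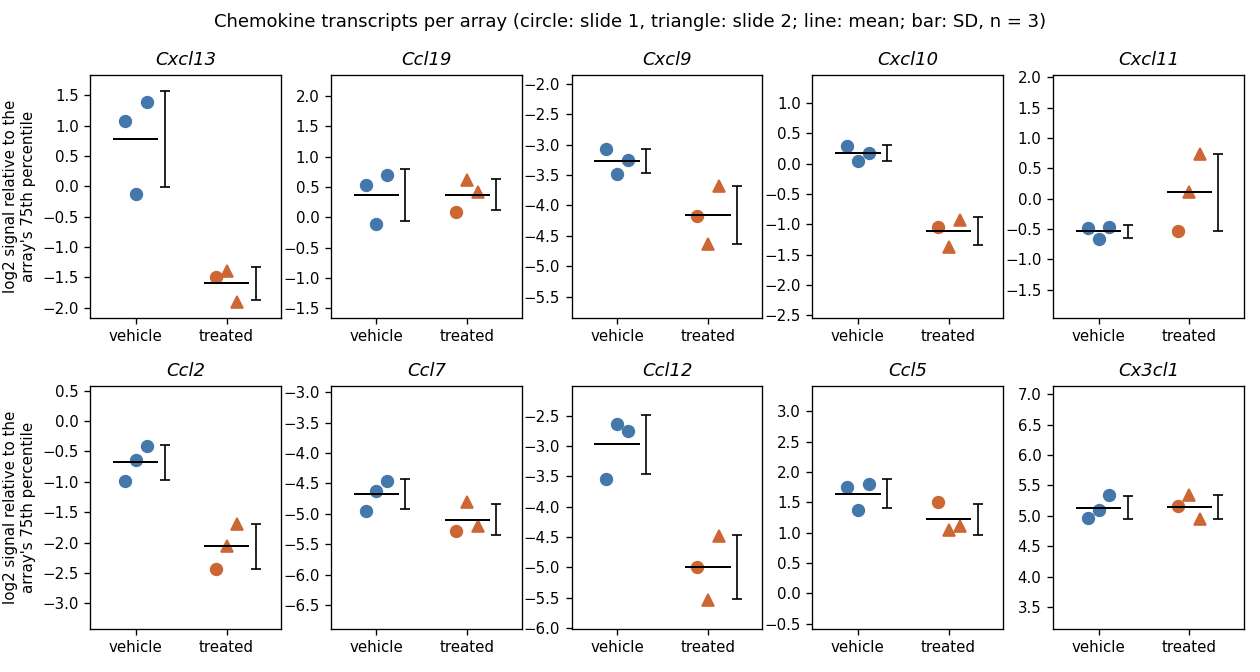
Level of each chemokine on each array (y axis, log2 signal relative to the array's 75th percentile, each panel with its own range) in 3 vehicle and 3 treated rats; circles are slide 1, triangles slide 2, lines are group means and bars SD. Cxcl13, Cxcl9, Cxcl10, Ccl2 and Ccl12 show treated points below all vehicle points, while the points of Ccl19, Cxcl11, Ccl7, Ccl5 and Cx3cl1 overlap.

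The lymphoid class split. Cxcl13, made in lymphoid follicles by stromal cells and also by macrophages, attracts B cells through Cxcr5. Its brighter probe read 1.07, -0.12 and 1.39 on vehicle 1, 2 and 3 and -1.50, -1.39 and -1.90 on treated 1, 2 and 3. Vehicle 2 lay well below the other vehicle arrays, but still 1.27 above the highest treated array. The group means were 0.78 ± 0.80 (SD, n = 3) and -1.60 ± 0.27 (SD, n = 3), a log2 difference of -2.38 (SE 0.40), or 5.20-fold lower. The gene ranked 2nd from the lowest of 12118 by this difference. The dimmer Cxcl13 probe gave -2.33 (SE 0.38), and its groups did not overlap either. On slide 1 alone, treated 1 lay 2.28 below the vehicle mean, and without vehicle 2 the difference was -2.83.

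Ccl19, which guides T cells and dendritic cells that carry Ccr7, showed no such shift. It read 0.53, -0.11 and 0.71 on vehicle 1, 2 and 3 and 0.09, 0.61 and 0.42 on treated 1, 2 and 3. The treated arrays fell inside the vehicle range. The group means differed by -0.0011 (SE 0.24, log2), and the sign turned with median centring (0.04) and with normexp (0.03). Vehicle 2 was the lowest vehicle array for both Cxcl13 and Ccl19.

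The interferon-induced class split as well. Cxcl10 read 0.30, 0.04 and 0.17 on vehicle 1, 2 and 3 and -1.05, -1.37 and -0.93 on treated 1, 2 and 3. The vehicle arrays lay within 0.25 of each other, and a gap of 0.97 separated the groups. Its means were 0.17 ± 0.13 (SD, n = 3) and -1.12 ± 0.23 (SD, n = 3), a log2 difference of -1.29 (SE 0.14), or 2.44-fold lower.

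Cxcl9 was dim but well above background on all 6 arrays. It read -3.08, -3.48 and -3.24 on vehicle 1, 2 and 3 and -4.17, -4.63 and -3.68 on treated 1, 2 and 3. The groups were apart by 0.20, less than the SD of the treated arrays (0.47). Cxcl9 thus differed by -0.89 on the log2 scale (SE 0.25), or by -0.44 with the normexp background correction.

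Cxcl11 did not follow them. It read -0.49, -0.66 and -0.47 on vehicle 1, 2 and 3 and -0.53, 0.11 and 0.74 on treated 1, 2 and 3. Treated 1 lay among the vehicle arrays, and the treated arrays of slide 2 lay above them. On the log2 scale Cxcl11 differed by 0.64 (SE 0.31), but by 0.0086 on slide 1 alone, so the value rested on treated 2 and 3.

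The promoters of the interferon class are shown because these 3 genes are consecutive on chromosome 14 and had unlike differences, and those of Cxcl13 and Ccl19 because the lymphoid class split too. Each line is the 250 bases before the annotated start, 5′ to 3′ on the gene's strand, from RefSeq on GRCr8: Cxcl11 chr14:15973478-15973727 (+), Cxcl10 chr14:15988816-15989065 (+), Cxcl9 chr14:16006916-16007165 (+), Cxcl13 chr14:13917921-13918170 (-) and Ccl19 chr5:61761165-61761414 (-). Capitals mark matches, on either strand, to an interferon-stimulated response element (GAAA, any 2 bases, GAAA), an NF-kB pattern (GGGA, any 2 bases, TTCC) or a gamma-activated site (TTC, any 3 bases, GAA).
Cxcl11: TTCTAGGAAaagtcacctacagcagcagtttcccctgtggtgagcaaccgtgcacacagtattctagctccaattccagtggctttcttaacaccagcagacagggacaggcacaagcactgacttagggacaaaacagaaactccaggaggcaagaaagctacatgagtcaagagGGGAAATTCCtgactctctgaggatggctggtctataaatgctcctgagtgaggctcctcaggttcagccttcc
Cxcl10: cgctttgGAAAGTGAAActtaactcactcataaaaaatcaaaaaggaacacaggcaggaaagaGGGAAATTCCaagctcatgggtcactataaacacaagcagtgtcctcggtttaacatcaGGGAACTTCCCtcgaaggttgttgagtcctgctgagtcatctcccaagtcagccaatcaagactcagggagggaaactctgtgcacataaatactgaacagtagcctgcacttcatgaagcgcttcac
Cxcl9: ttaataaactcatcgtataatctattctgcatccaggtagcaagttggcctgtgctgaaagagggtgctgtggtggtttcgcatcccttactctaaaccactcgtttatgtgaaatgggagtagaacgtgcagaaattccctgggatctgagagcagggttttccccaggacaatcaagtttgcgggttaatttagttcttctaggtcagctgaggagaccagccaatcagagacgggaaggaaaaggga
Cxcl13: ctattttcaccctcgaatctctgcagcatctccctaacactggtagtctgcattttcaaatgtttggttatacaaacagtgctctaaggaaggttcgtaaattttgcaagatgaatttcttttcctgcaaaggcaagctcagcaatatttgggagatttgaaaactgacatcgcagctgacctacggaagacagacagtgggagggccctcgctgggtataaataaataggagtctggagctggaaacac
Ccl19: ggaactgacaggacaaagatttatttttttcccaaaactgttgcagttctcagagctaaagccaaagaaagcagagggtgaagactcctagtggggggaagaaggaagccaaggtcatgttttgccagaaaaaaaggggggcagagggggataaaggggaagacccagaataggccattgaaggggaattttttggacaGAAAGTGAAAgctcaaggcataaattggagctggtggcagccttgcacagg

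Of the 8 described genes with a promoter in the table, 2 held the response element pattern, Cxcl10 (first base 243 before the start) and Ccl19 (51 before). Over all 33469 promoter windows of this length, 3.41% held it. The NF-kB pattern was in 3 of the 8, Cxcl10, Cxcl11 and Ccl7, against 1.08% of all windows. In Cxcl10 it matched at 187 and at 128 before the start, and the latter overlapped a match on the other strand. In Cxcl11 it matched at 74 and in Ccl7 at 59 before the start. The gamma-activated site pattern was in Cxcl11 only, at 250 before the start, against 7.67% of all windows. Cxcl10 and Ccl19, the pair with the response element pattern, had log2 differences of -1.29 and -0.0011. Among the 3 with the NF-kB pattern, the differences were -1.29, 0.64 and -0.42. Cxcl13 and Ccl12, with the lowest differences of the 10, held none of the 3 patterns in this window. A match is a match of letters only, and the patterns were chosen with the expression values known.

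**Figure D2:**
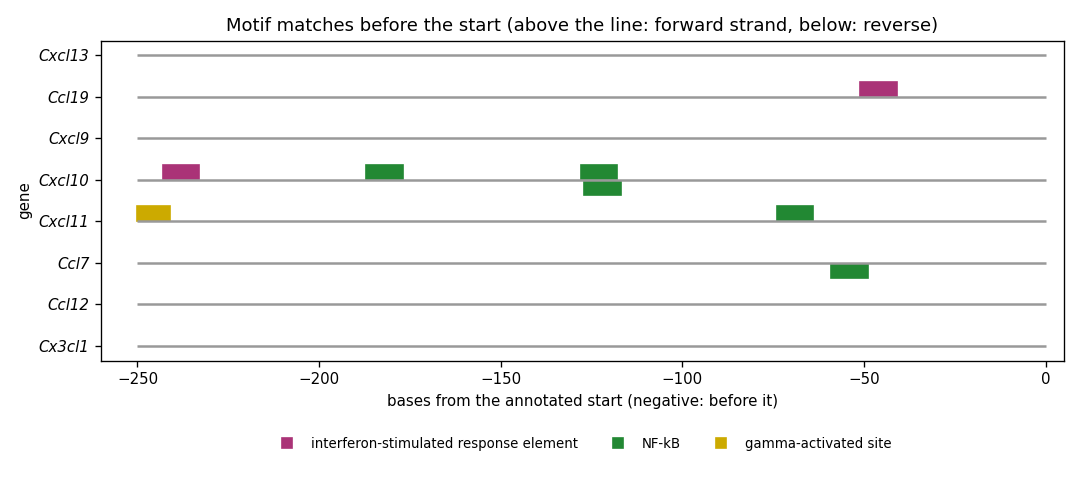
Position of motif matches (x axis, bases from the annotated start, the start being on the right) in the 250 bases before 8 chemokine genes; colours are the 3 patterns, boxes above a line are on the gene's strand and boxes below it on the other. Cxcl10 holds matches to the interferon-stimulated response element and NF-kB patterns, and Cxcl13, Cxcl9, Ccl12 and Cx3cl1 hold none.

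All monocyte chemokines had a negative difference, to unlike extents. Ccl12, a mouse and rat chemokine that binds Ccr2, read -3.54, -2.64 and -2.75 on vehicle 1, 2 and 3 and -4.99, -5.53 and -4.47 on treated 1, 2 and 3. The groups were 0.93 apart. The means were -2.98 ± 0.49 (SD, n = 3) and -5.00 ± 0.53 (SD, n = 3), a log2 difference of -2.02 (SE 0.35), or 4.06-fold lower. The gene ranked 6th from the lowest of 12118. A dimmer Ccl12 probe was well above background on all 3 vehicle arrays and on none of the treated arrays, and was at least 2.35-fold lower (measured means -4.36 and -7.22). For this bound the vehicle mean is set against, on each treated array, the higher of the probe's value and the lowest signal among probes well above background. With normexp the Ccl12 difference was -0.95.

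Ccl2, or MCP-1, the main monocyte attractant, read -0.98, -0.65 and -0.41 on vehicle 1, 2 and 3 and -2.44, -2.05 and -1.70 on treated 1, 2 and 3. The groups were 0.72 apart. Ccl2 was 2.61-fold lower, at a log2 difference of -1.39 (SE 0.23), and treated 1 alone lay 1.76 below the vehicle mean. Vehicle 1 was the lowest vehicle array for Ccl2, Ccl7 and Ccl12 alike.

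Ccl7, or MCP-3, was near background. Its brighter probe read -4.95, -4.63 and -4.45 on vehicle 1, 2 and 3 and -5.29, -4.80 and -5.20 on treated 1, 2 and 3. It was well above background on 2 of the 3 treated arrays, and treated 2 lay above vehicle 1. Its log2 difference of -0.42 (SE 0.18) came to -0.097 with normexp and to -0.61 on slide 1 alone. The dimmer probe was well above background on 2 vehicle arrays and on no treated array, and was not tested.

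Ccl5, or RANTES, read 1.75, 1.38 and 1.81 on vehicle 1, 2 and 3 and 1.51, 1.05 and 1.11 on treated 1, 2 and 3. Treated 1 lay above vehicle 2, so the groups overlapped. The log2 difference was -0.42 (SE 0.17), and -0.13 on slide 1 alone. The second Ccl5 probe gave -0.32 (SE 0.18).

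Cx3cl1 had the brighter probe at 4.96, 5.10 and 5.34 on vehicle 1, 2 and 3 and at 5.17, 5.34 and 4.95 on treated 1, 2 and 3. The groups covered nearly the same range. The difference of 0.020 (SE 0.14, log2) turned to -0.011 with quantile normalization. The dimmer Cx3cl1 probe gave -0.29 (SE 0.20), with treated 3 (-0.082) below all other arrays.

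Class values were averaged per array after each gene's vehicle mean was subtracted. The lymphoid class stood at 0.22, -0.69 and 0.47 on vehicle 1, 2 and 3 and at -1.28, -0.97 and -1.32 on treated 1, 2 and 3. The monocyte class stood at -0.38, 0.14 and 0.24 on the vehicle and at -1.46, -1.35 and -1.01 on the treated arrays. The interferon-induced class stood at 0.12, -0.15 and 0.03 on the vehicle and at -0.70, -0.75 and -0.079 on the treated arrays. The treated arrays lay below the vehicle arrays for the lymphoid and monocyte classes. For the interferon-induced class, treated 3 lay within the vehicle range. Ccl5 and Cx3cl1 together stood between -0.15 and 0.19 on the vehicle and between -0.36 and -0.049 on the treated arrays, which overlapped. The class means were -1.19 for the lymphoid, -1.28 for the monocyte and -0.51 for the interferon-induced class. Genes within these classes spread more widely than the class means did, from -2.38 to -0.0011 in the lymphoid class and from -1.29 to 0.64 in the interferon-induced class. The monocyte class mean was -0.75 with normexp.

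**Figure D3:**
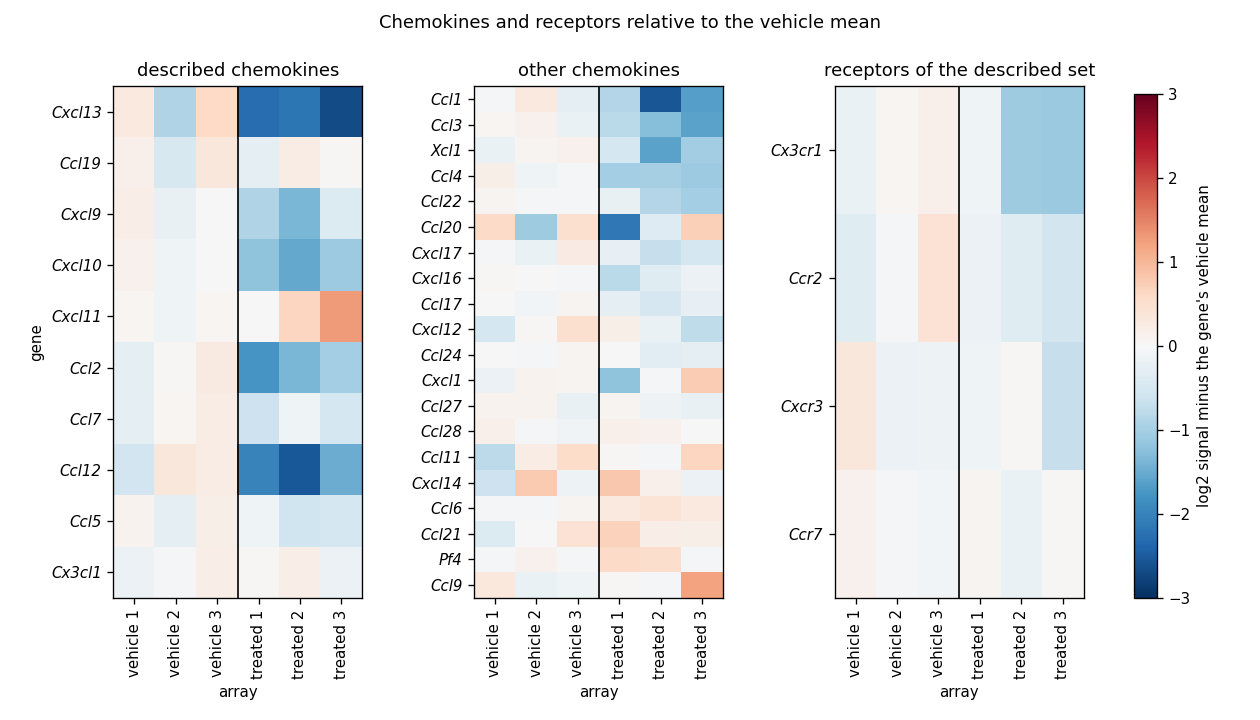
Colour shows log2 signal minus the gene's vehicle mean (blue lower, red higher, scale from -3 to 3) on each of 6 arrays (columns) for the 10 described chemokines, 20 other chemokines and 4 receptors (rows). Cxcl13 and Ccl12 hold the darkest blue in the treated columns of the first panel, and Cxcl11 is red on treated 2 and 3.

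The 5 genes whose profile over the 6 arrays was closest to each of 3 chemokines were listed by the root mean square difference after subtracting the vehicle mean. For Cxcl10 these were Bcl2a1 (0.11), Kcne1 (0.13), Pkia (0.20), the chemokine Ccl4 (0.24) and Insyn2a (0.24). For Ccl12 they were the scavenger receptor Msr1 (0.39), Gpr84 (0.54), Fat3 (0.54), Fam163a (0.54) and Ccl2 (0.56). For Cxcl13 they were Kcna4 (0.52), Ppp1r17 (0.64), Msr1 (0.68), Marchf11 (0.68) and Rgs18 (0.70). Kcna4, Ppp1r17, Rgs18, Gpr84 and Pkia were not well above background on any treated array, so their distances rest on treated values near background. Among the 10 themselves, Ccl19 and Cx3cl1 (0.28), Cxcl9 and Cxcl10 (0.32) and Cxcl10 and Ccl2 (0.32) were the closest pairs, and Cxcl13 and Cxcl11 (2.23) the farthest. Of these 3 closest pairs, Cxcl9 and Cxcl10 alone came from 1 class. Ccl19 and Cx3cl1, the closest pair, had differences of -0.0011 and 0.020. Every such distance depends largely on the treated minus vehicle difference, and the chemokines were chosen with that difference in view. Nothing is therefore read from the likeness.

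Other chemokines were read from a list of 25 genes, of which 20 were tested. None of them was called at an adjusted p under 0.05 (limma over all probes). At an unadjusted p under 0.05, 8 were lower and 1 was higher, beside 11.3% of all tested genes lower and 10.1% higher. The list median was -0.23. Ccl4, or MIP-1 beta, an attractant of monocytes and T cells, had the smallest p on the brightest probe of each gene. It read -1.73, -2.05 and -1.96 on vehicle 1, 2 and 3 and -2.93, -2.91 and -3.01 on treated 1, 2 and 3. Its groups did not overlap, and the log2 difference came to -1.03 (SE 0.10, limma adjusted p = 0.064). Ccl3, or MIP-1 alpha, its neighbour, had -1.23 (SE 0.22, limma adjusted p = 0.096). Ccl6 was the 1 higher gene, at 0.33 (SE 0.077, limma adjusted p = 0.13). Ccl1, a ligand of Ccr8, was above background on all 3 vehicle arrays and no treated array. It was lower by at least 1.49-fold (measured means -5.01 and -6.71, limma adjusted p = 0.14). Ccl22 had -0.71 (SE 0.22, limma adjusted p = 0.17) on its brightest probe. A dimmer Ccl22 probe gave -1.29 (SE 0.12, limma adjusted p = 0.064), with groups apart and a smaller unadjusted p than Ccl4. The dimmest gave -0.59 (SE 0.21, limma adjusted p = 0.20), with groups overlapping.

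Without treated 1, probes called lower over the whole array rose from 2 to 2768, and those called higher from 1 to 1467. In that setting Ccl1, Ccl3, Ccl4, Ccl22 and Xcl1 passed the adjusted threshold, each lower. The log2 differences of Ccl3, Ccl4, Ccl22 and Xcl1 were then -1.45, -1.04, -0.96 and -1.33. Ccl4 also passed with a trended, robust variance (limma adjusted p = 0.029) and with normexp (limma adjusted p = 0.034, at -0.84). The treated arrays left in without treated 1 are both from slide 2, where no vehicle array was scanned, so slide and treatment cannot be told apart among them.

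The 10 genes lie in runs of neighbouring chemokine genes in the RefSeq gene order, except Cxcl13. On chromosome 10, Ccl2, Ccl7, Ccl11, Ccl12 and Ccl1 are consecutive, with log2 differences of -1.39, -0.42, 0.22, -2.02 and -1.70. The last of these rests on treated values below background. Ccl11, or eotaxin, stood between Ccl7 and Ccl12, but its positive value had an SE of 0.38 and its groups overlapped. Farther along the same chromosome, Ccl5, Ccl9, Ccl6, Ccl3 and Ccl4 had -0.42, 0.41, 0.33, -1.23 and -1.03. On chromosome 14, Cxcl11, Cxcl10 and Cxcl9 had 0.64, -1.29 and -0.89. On chromosome 19, Cx3cl1 at 0.020 was flanked by Ccl17 at -0.35 and Ccl22 at -0.71. On chromosome 5, Ccl19 stood between Ccl27 (-0.098) and Ccl21 (0.35), the latter with 1 other coding gene in between. Both signs occurred within every run, but several of these values cannot be told from no difference. The positive values of Ccl11 and Cx3cl1 (SE 0.14), each the only one in its run, were smaller than their SEs. So were, in size, the negative values of Ccl27 (SE 0.13) and Ccl19 (SE 0.24). Neighbours were named for their place in the genome, with their values known.

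**Figure D4:**
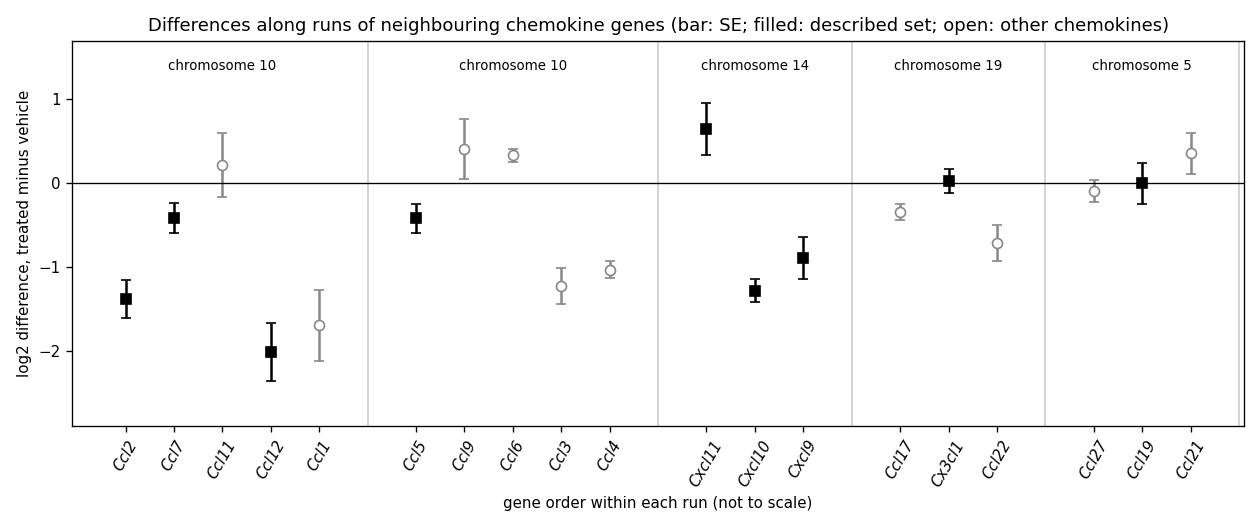
Log2 difference, treated minus vehicle (y axis, bars are SE, 3 arrays per group), along runs of neighbouring chemokine genes in their order on the chromosome (x axis, not to scale); filled squares are the described genes and open circles other chemokines. Ccl2, Ccl12, Ccl1, Ccl3, Ccl4, Cxcl10 and Cxcl9 lie near or below -1, in runs that also hold a gene above 0. The SE bar of Ccl11 reaches below 0. The Ccl1 point rests on treated values below background.

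The receptors that read these ligands were not part of the choice of genes. Of the 8, 5 were tested, 0 were called at an adjusted p under 0.05 and 1 was lower at an unadjusted p under 0.05, beside 11.3% of all tested genes. That count was 0 with slide (fixed or random) or replicate number as a block and without vehicle 2, vehicle 3, treated 2 or treated 3, and 2 without vehicle 1. The median of -0.26 was -0.016 with normexp, -0.042 with no filter on dim probes, -0.096 without vehicle 1 and -0.059 without treated 3. Cx3cr1, the fractalkine receptor of monocytes and macrophages, read on its brighter probe -0.59, -0.33 and -0.23 on vehicle 1, 2 and 3 and -0.51, -1.45 and -1.50 on treated 1, 2 and 3. Treated 1 lay within the vehicle range on this probe, which differed by -0.77 (SE 0.29, limma adjusted p = 0.22), -0.13 on slide 1 alone and -1.09 without treated 1 (limma adjusted p = 0.019). In that last setting 2768 probes over the whole array were called lower, and slide and treatment cannot be told apart. The dimmer Cx3cr1 probe put all treated arrays, treated 1 included, below the vehicle arrays by 0.31. It read -3.30, -3.33 and -3.02 on vehicle 1, 2 and 3 and -3.65, -4.05 and -3.64 on treated 1, 2 and 3, a log2 difference of -0.56 (SE 0.15, limma adjusted p = 0.15) and -0.43 on slide 1 alone.

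Ccr2, the receptor of Ccl2, Ccl7 and Ccl12, was near background at -0.36 (SE 0.22, limma adjusted p = 0.38). Cxcr3 had -0.26 (SE 0.23, limma adjusted p = 0.54). Ccr7, the receptor of Ccl19, had -0.027 (SE 0.11, limma adjusted p = 0.90). Cxcr5, the receptor of Cxcl13, and Ccr3 stayed below that flag on all 6 arrays, and Ccr1 was above it on 1 vehicle and 1 treated array. On the brightest probe of each gene the groups overlapped for all 5 tested receptors, unlike on the dimmer Cx3cr1 probe.

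Among 10 other chemokine receptors, 5 were tested and 0 passed at an unadjusted p under 0.05 in either direction, by limma. Of 5 atypical receptors, which take up chemokines without signalling through G proteins, 2 were tested and 0 were called after adjustment. At an unadjusted p under 0.05, 1 was lower, beside 11.3% of all tested genes. The lower gene was Ackr3, the receptor for Cxcl11 and Cxcl12, at -0.57 (SE 0.18, limma adjusted p = 0.18), with treated arrays below vehicle arrays. Of 7 proteases that cut chemokines, among them Dpp4 and the fractalkine sheddases Adam10 and Adam17, 7 were tested. On the brightest probe of each, 0 passed at an unadjusted p under 0.05. The probes of Adam10 differed, with the brightest at -0.024 (SE 0.20). Dimmer ones gave -0.47 (SE 0.11, limma adjusted p = 0.13), with groups apart, and -0.39 (SE 0.21, limma adjusted p = 0.33), with groups overlapping.

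Of 21 inducing cytokines and their receptors, 12 were tested, 0 were called after adjustment, and 4 were lower and 2 higher at an unadjusted p under 0.05, beside 11.3% and 10.1% of all tested genes. The 4 with the smallest p included, on the lower side, Tlr4, the endotoxin receptor (-0.44, SE 0.095, limma adjusted p = 0.12), the cytokine gene Il1b (-0.66, SE 0.21, limma adjusted p = 0.18) and the TNF receptor Tnfrsf1b (-0.34, SE 0.12, limma adjusted p = 0.20). The interferon receptor chain Ifnar1 was on the higher side (0.29, SE 0.086, limma adjusted p = 0.17). A dimmer Ifnar1 probe gave only 0.092 (SE 0.10, limma adjusted p = 0.64). Dimmer probes of Il1b and Tnfrsf1b gave -0.46 (SE 0.24, limma adjusted p = 0.32) and -0.31 (SE 0.14, limma adjusted p = 0.26). On each of these dimmer probes the groups overlapped. Ifng, Ifnb1 and Il6 were not well above background on any array, and were named after their values were seen.

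Of 17 transcription factors and inhibitors that act on chemokine promoters, 12 were tested and 0 were called after adjustment. At an unadjusted p under 0.05, 3 were lower and 0 higher, beside 11.3% and 10.1% of all tested genes. The 3 lower genes included Irf9 (-0.44, SE 0.077, limma adjusted p = 0.096) and Irf7 (-0.71, SE 0.27, limma adjusted p = 0.22). The Irf7 groups overlapped, with vehicle 2 (0.75) below treated 3 (0.80). A dimmer Irf9 probe gave -0.26 (SE 0.095, limma adjusted p = 0.21), with groups apart. Irf9 is part of a complex that binds the interferon-stimulated response element. Without treated 1, Irf9 and Tlr4 passed the adjusted threshold at -0.43 and -0.49. In that setting 2768 probes over the whole array were called lower, and slide and treatment cannot be told apart. The list median was -0.19.

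Markers of leukocytes were read beside the chemokines. Of 14 macrophage markers, 11 were tested, and 4 were lower and 1 higher at an unadjusted p under 0.05, with 0 called after adjustment. Over all tested genes 11.3% were lower and 10.1% higher, which also stands beside the counts of the other marker lists. The lower ones were Msr1 (-1.80), Adgre1 (-0.85), Mpeg1 (-0.59) and Aif1 (-0.56), and the higher one was Mrc1 (0.75); these were named after their values were seen. The averaged log2 level of the macrophage markers relative to the vehicle mean ranged from -0.22 to 0.11 on the vehicle and from -0.49 to -0.10 on the treated arrays. Here treated 1 (-0.10) lay within the vehicle range, and treated 2 and 3 (-0.49 and -0.36) lay below it. Cd68 and Csf1r differed by -0.38 and -0.23. Of 8 tested T cell markers 1 was lower and 0 were higher, and their averaged level ranged from -0.17 to 0.18 and from -0.57 to 0.01. Treated 1, the treated array on the slide of the vehicle arrays, stood at 0.01, within the vehicle range. On treated 2 and 3, from slide 2, the level was -0.57 and -0.56. Of 10 B cell markers 3 were tested and 1 was lower; the averaged level ranged from -0.11 to 0.10 and from -0.33 to -0.12. Of 8 lymph node stroma markers 3 were tested, with a median of 0.35 and 0 at an unadjusted p under 0.05. Their averaged level ranged from -0.74 to 0.49 on the vehicle and from 0.16 to 0.77 on the treated arrays, which overlapped. Neither Madcam1 nor Cr2 stood above background on an array. Of the neutrophil markers 4 were tested, with a median of 0.51 and 0 at an unadjusted p under 0.05. S100a8 (0.81), S100a9 (0.82) and Camp (0.20) had positive values and Csf3r (-0.11) a negative one. Neither Elane nor Cxcr2 was well above background on any array. These genes were named after their values were seen. The averaged level of the tested neutrophil markers ranged from -0.27 to 0.44 on the vehicle and from 0.17 to 0.63 on the treated arrays, which overlapped. Of 8 dendritic cell markers 3 were tested, with a median of -0.14 and 0 at an unadjusted p under 0.05, and their averaged level ranged from -0.11 to 0.19 and from -0.59 to 0.15. For these only treated 2 (-0.59) lay outside the vehicle range. The part of these cell types in the chemokine differences was not tested.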

How the data were processed

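Per the file headers, each deposited scanner file gives linear intensity per spot, background-subtracted, from Agilent Feature Extraction 10.7.1.1 (10.7 in the submitters' processing notes). A deposited value table holds intensity close to the processed signal divided by the array's 75th percentile (log2 correlation above 0.99 on every array, median of each column from 0.105 to 0.11).

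Analysed values were log2 processed signal minus log2 of the array's 75th percentile. Of 61537 non-control probes, 11 with an outlier flag were left out and no spot was saturated. Probes well above background on all 3 arrays of a group (40643) were tested with limma 3.58.1 in R 4.3.3 (lmFit, eBayes, two-sided, Benjamini-Hochberg over all probes, threshold 0.05). The code was also run on simulated data with independent noise for each probe. These held no slide effect and no deviating array, so they do not cover those features of the arrays. Accessions were matched without versions to RefSeq symbols (assembly GRCr8): 28206 probes had 1 symbol, 33331 had none. A gene was represented by its tested probe with the highest mean.

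Genes and lists were chosen with earlier results of these data known. Named genes were the 10 chemokines, their receptors, the 5 closest profiles to Cxcl13, Ccl12 and Cxcl10, and from each other list the called genes or up to 4 with the smallest unadjusted p under 0.05. Alternatives covered background correction (normexp on the median spot signal, offset 50), scaling, dim probes, the variance model, slide, replicate number, the source of the values, the probe of a gene and each array left out. Some genes of the lists are counted but not reported by name here. The number of arrays limits the precision.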

Additional observations from a re-analysis of the deposited data

How the results depend on the processing

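Cxcl13, Ccl12, Ccl2, Cxcl10 and Cxcl9 kept a negative difference under every alternative run. Wherever it was counted, 5 or 6 of the 10 chemokines had treated arrays below all vehicle arrays. Nothing is read from this count, since the genes were chosen on this contrast and the share over all genes is not given for each alternative. With an array left out, groups lie apart more easily for any gene. The number of probes called higher and lower was 96 and 40 with normexp, 12 and 5 with median centring, 0 and 1 with no filter on dim probes, 0 and 0 when a probe had to be above background on all 6 arrays, or with dim values set to the floor, 109 and 47 with a trended, robust variance, and 0 and 1 with slide as a fixed block. With each array left out in turn it ranged from 0 to 1467 higher and from 0 to 2768 lower, the highest counts being those without treated 1. The other chemokines lower at an unadjusted p under 0.05 numbered 5 with slide as a fixed block and 5 to 9 with an array left out, and the higher ones 3 with normexp and 1 to 2 with an array left out. List genes called lower after adjustment numbered 1 with normexp, 1 with the trended variance and 0 to 9 with an array left out. The monocyte class was -0.75 with normexp. The median of the other chemokine receptors turned positive with normexp (0.048) and with slide as a fixed (0.011) or random block (0.050), that of the atypical receptors with no filter (0.074), and that of the inducing cytokines with no filter (0.040); the cause was not tested. Same-numbered arrays of the groups did not deviate together (correlations of -0.21, 0.014 and -0.16 over probes, and 1 of 6 arrays correlated best with its own number), so the numbers were not taken as pairs. With replicate number as a block 0 probes were called higher and 0 lower. Signals near background limit Ccl7, Ccl12 and Cxcl9.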

Other observations

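Ccl20, which attracts cells carrying Ccr6, read -0.98, -2.60 and -1.06 on vehicle 1, 2 and 3 and -3.70, -1.93 and -0.83 on treated 1, 2 and 3. Its log2 difference was -0.61 (SE 0.81, limma adjusted p = 0.69), with an SD of 0.92 among vehicle and 1.45 among treated arrays. Cxcl1, a neutrophil attractant, read -3.52, -3.24 and -3.25 on vehicle 1, 2 and 3 and -4.54, -3.39 and -2.59 on treated 1, 2 and 3, a log2 difference of -0.17 (SE 0.47, limma adjusted p = 0.86). In both genes treated 1 was the lowest and treated 3 the highest of the 6 arrays. Cxcl16, a membrane-bound chemokine and scavenger of oxidised lipid, read 4.64, 4.60 and 4.56 on vehicle 1, 2 and 3 and 3.80, 4.23 and 4.41 on treated 1, 2 and 3. The groups did not overlap, at a log2 difference of -0.45 (SE 0.16, limma adjusted p = 0.21). These 3 genes were picked after their values were seen.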
